A study of Homo sapiens with 10 samples.

Results

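ZEB1 occupancy after 72 h of eribulin was set against occupancy after 24 h, over all 52981 consensus sites of a CUT&RUN experiment in human breast cancer cells named MDA in the labels and given there as negative for the estrogen, progesterone and HER2 receptors. The comparison uses 4 of the 10 libraries of the series, 2 from cells given 300 nM eribulin for 72 h and 2 from cells given the same dose for 24 h. All 4 come from treated cells, whose cell line label is MDA_ERI, while the untreated cells are labelled MDA_Parental; whether MDA_ERI is a derived line or the same cells under drug is not given. Of the other libraries, 2 at 48 h and 2 from untreated cells entered the fit of the spread and are quoted for their levels, and 2 IgG libraries were not analysed here. In CUT&RUN an antibody, here against ZEB1, guides a nuclease to the DNA that a protein occupies, and the released fragments are sequenced; the labels also name Tn5, an enzyme of another method, and this was not resolved. Of the 52981 sites, 46436 had enough counts to be tested.

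ZEB1 is a DNA-binding repressor best known for its part in the epithelial-mesenchymal transition, in which cells lose junctions and polarity and become migratory. It binds E-boxes with the letters CACCTG, which read CAGGTG on the opposite strand, and recruits corepressors to silence E-cadherin, other junction and polarity genes and the miR-200 family, which in turn targets ZEB1 messenger RNA. Eribulin blocks microtubule growth and is used against advanced breast cancer. Occupancy is not expression: these libraries do not show whether a transcript changed, and cell type markers cannot be checked in them.

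Counts in sites summed to 1207987 and 1130706 in the 72 h libraries, against 1886419 and 1799143 in the 24 h libraries. The 2 libraries of a time differed by less than sampling noise, with a chi-square per degree of freedom of 0.951 at 72 h and 0.886 at 24 h over sites with 20 or more counts. Between 72 h and 24 h libraries it lay from 4.94 to 5.05. Each time therefore counts as 1 sample (n = 1), the p-values below compare these libraries, and intervals cover counting error only. Values at sites are CPM, the usual depth-scaled counts, after trimmed-mean (TMM) scaling, which sets the typical site equal between libraries.

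The promoter windows of 6 genes are printed because the E-box split described below rests on their kind: those of PATJ, OCLN, ELF3 and ZEB1 hold the E-box, and those of CLDN4 and VIM do not. PATJ is a scaffold of the Crumbs polarity complex, occludin (OCLN) and claudin-4 (CLDN4) are tight junction proteins, ELF3 is an epithelial ETS-family transcription factor, and vimentin (VIM) is the intermediate filament protein of mesenchymal cells. Each window is RefSeq sequence of GRCh38.p14, 300 bases on the plus strand, from 250 before to 50 after the gene's start, 5′ to 3′, with every CACCTG or CAGGTG in capitals. The windows lie at chr1:61742230-61742529 (PATJ), chr5:69492297-69492596 (OCLN), chr1:202010337-202010636 (ELF3), chr10:31318167-31318466 (ZEB1), chr7:73830746-73831045 (CLDN4) and chr10:17227991-17228290 (VIM). PATJ has 3 matches, OCLN, ELF3 and ZEB1 have 1 each, and CLDN4 and VIM have 0.
PATJ: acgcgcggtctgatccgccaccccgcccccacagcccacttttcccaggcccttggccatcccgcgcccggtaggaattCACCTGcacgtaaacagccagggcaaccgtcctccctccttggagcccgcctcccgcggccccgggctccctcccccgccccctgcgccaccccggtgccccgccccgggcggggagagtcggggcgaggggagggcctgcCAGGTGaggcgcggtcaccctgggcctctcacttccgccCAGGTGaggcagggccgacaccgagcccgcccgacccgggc
OCLN: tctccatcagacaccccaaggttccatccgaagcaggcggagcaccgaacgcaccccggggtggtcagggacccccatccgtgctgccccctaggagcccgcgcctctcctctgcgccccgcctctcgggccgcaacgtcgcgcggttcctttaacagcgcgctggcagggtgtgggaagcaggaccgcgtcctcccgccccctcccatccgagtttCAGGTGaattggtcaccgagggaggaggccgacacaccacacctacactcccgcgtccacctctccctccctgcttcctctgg
ELF3: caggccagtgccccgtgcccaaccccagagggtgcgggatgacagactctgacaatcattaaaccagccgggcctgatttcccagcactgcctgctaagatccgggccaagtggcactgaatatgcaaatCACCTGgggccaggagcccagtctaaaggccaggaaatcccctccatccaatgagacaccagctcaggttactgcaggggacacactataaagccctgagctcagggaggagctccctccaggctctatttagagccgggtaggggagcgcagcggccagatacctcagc
ZEB1: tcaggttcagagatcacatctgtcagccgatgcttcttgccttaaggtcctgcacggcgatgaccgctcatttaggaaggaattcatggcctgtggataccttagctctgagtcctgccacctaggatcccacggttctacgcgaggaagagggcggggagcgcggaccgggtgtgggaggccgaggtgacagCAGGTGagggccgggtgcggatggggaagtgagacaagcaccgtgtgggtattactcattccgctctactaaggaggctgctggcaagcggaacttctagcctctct
CLDN4: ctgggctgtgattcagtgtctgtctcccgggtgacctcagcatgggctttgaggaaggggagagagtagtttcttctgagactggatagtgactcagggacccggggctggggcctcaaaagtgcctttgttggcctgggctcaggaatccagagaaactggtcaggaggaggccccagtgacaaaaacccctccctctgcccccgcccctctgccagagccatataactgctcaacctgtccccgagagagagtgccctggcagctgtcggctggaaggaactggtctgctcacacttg
VIM: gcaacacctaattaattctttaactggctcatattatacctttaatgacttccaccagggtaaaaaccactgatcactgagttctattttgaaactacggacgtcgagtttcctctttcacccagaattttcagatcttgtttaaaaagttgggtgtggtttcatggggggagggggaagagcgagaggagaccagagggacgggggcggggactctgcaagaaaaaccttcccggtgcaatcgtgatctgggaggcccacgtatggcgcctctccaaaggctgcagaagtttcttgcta

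A site was called when edgeR's quasi-likelihood adjusted p was under 0.05 and the difference was at least 2-fold. At 72 h, 5627 sites were higher and 4315 lower than at 24 h, 12.1% and 9.29% of the sites tested (21.4% in either direction). By adjusted p alone 9004 were higher (19.4%) and 7638 lower (16.4%). The median log2 fold change over all tested sites was -0.01. These directions are relative to the typical site: scaled to a background level recovered from the peak lists, the median shifted by -0.57 to -0.58, and 1909 sites were higher (4.11%) and 13624 lower (29.3%). Lower sites were 43.4% of the calls with TMM, 54.5% with scaling by total counts, 32.4% with DESeq2 and 87.7% with the background scaling. In bulk libraries, fewer bound cells and less ZEB1 per cell cannot be told apart.

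Sites called higher at 72 h had a median of 10.7 CPM in untreated cells, 6.18 at 24 h, 15.3 at 48 h and 17.1 at 72 h, so their signal was lowest at 24 h. Sites called lower had medians of 7.84, 15.2, 8.59 and 6.13 CPM in the same order, so theirs was highest at 24 h. The 48 h value lay between the 24 h and 72 h values at 69.2% of the sites called higher and at 81.3% of those called lower. The fold behind a call uses the 24 h and 72 h values and not the untreated and 48 h levels. Choosing sites whose 24 h and 72 h values lie far apart itself favours a 24 h extreme and a 48 h value in between. The share over all tested sites was not computed, so these values are description only. The levels were computed with TMM scaling only.

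**Figure D1:**
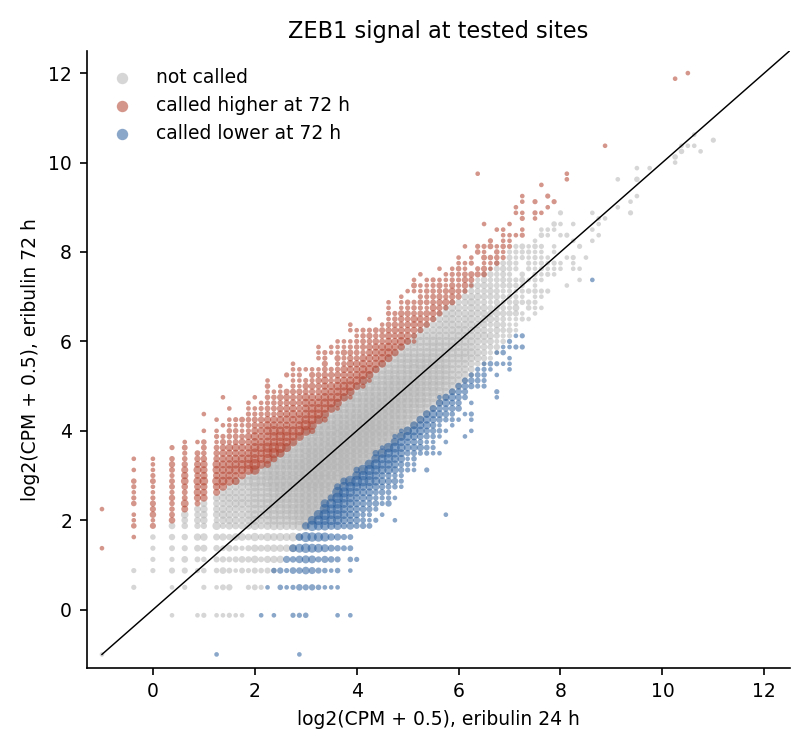
ZEB1 signal at the 46436 tested sites after 72 h (y axis) and 24 h (x axis) of eribulin, as log2(CPM + 0.5) of the pooled libraries of each time; points are bins of sites. The 5627 sites called higher at 72 h lie above the diagonal and the 4315 called lower lie below it.

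Promoter sites with and without the letters of the ZEB1 E-box differed in this comparison. Of the tested sites, 8782 overlapped at least 1 RefSeq promoter window. E-boxes were counted in 1 window per gene, the first listed. A site took the highest count among the genes whose windows it overlapped. Where a gene has several windows, the counted one need not be the one overlapped, as at the neighbouring ZEB1 site below. By this count 1857 sites had at least 1 E-box and 6925 had 0. With the E-box, the median signal was 23.7 and 23.5 CPM in the 72 h libraries, against 19.6 and 19.0 CPM in the 24 h libraries. Without it, the medians were 19.5 and 19.0 CPM at 72 h, against 21.1 and 21.1 CPM at 24 h. With TMM scaling, E-box promoters thus had the higher median at 72 h and the others the lower one, in both libraries of each time.

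With the E-box, 322 sites (17.3%) were higher at 72 h and 40 (2.15%) lower. Without it, 294 (4.25%) were higher and 578 (8.35%) lower. The median log2 fold change was 0.36 with the E-box and -0.19 without, a difference of 0.55. With the background scaling the medians were -0.20 and -0.76, so the direction of E-box promoters turns with the scaling, while they remain above the promoters without it. The median also differed with the number of E-boxes, at 0.30 over 1587 sites with 1, 0.80 over 233 sites with 2 and 1.08 over 37 sites with 3 or more. With 2 and with 3 or more it stayed above 0 with the background scaling, at 0.23 and 0.51, while with 1 it was -0.27.

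**Figure D2:**
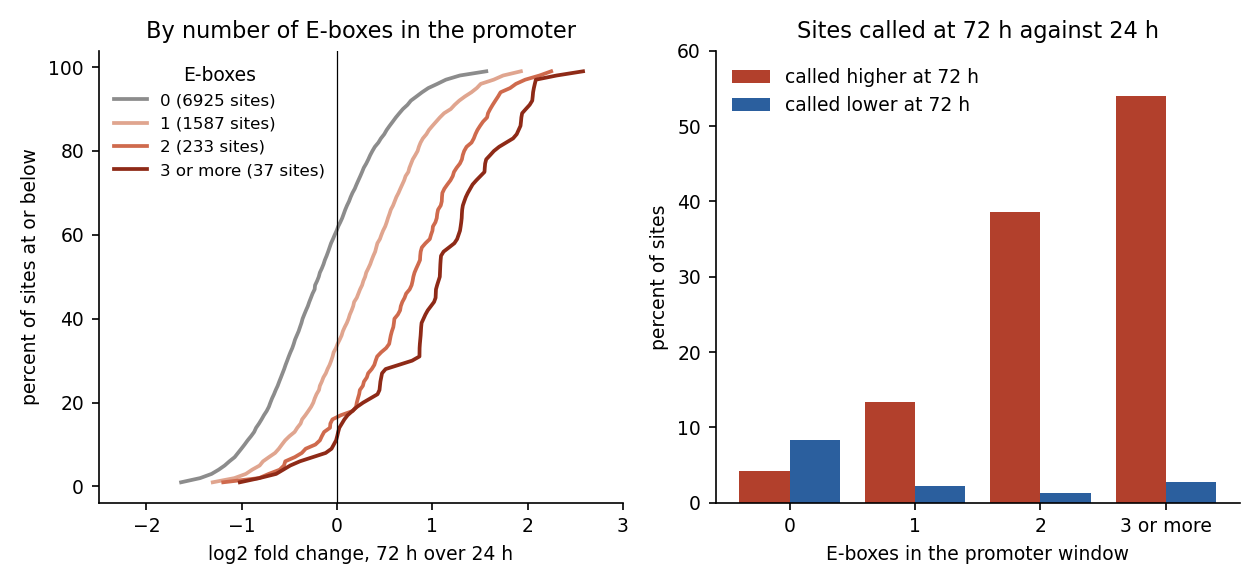
Left, the cumulative distribution of log2 fold change (72 h over 24 h) of promoter sites by the number of CACCTG or CAGGTG matches. Matches were counted in the first listed window of each gene. Right, the percent of those sites called higher (red) and lower (blue) at 72 h. The share called higher is 4.25% with 0 E-boxes, 13.4% with 1, 38.6% with 2 and 54.1% with 3 or more.

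The split was present in each stratum examined. Across quintiles of promoter GC content the median log2 lay between 0.26 and 0.45 with the E-box and between -0.22 and -0.14 without. Across quintiles of gene density it lay between 0.24 and 0.49 with the E-box and between -0.34 and -0.11 without. Leaving out sites within 5 Mb of a chromosome end, the medians were 0.36 and -0.19. These strata, like the motif itself, were chosen with the values in view.

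Other motifs, searched on both strands in the same windows, gave far smaller differences between windows with and without them. The median log2 differed by 0.05 for CAGCTG, -0.05 for CACGTG, 0.04 for CATCTG or its reverse strand CAGATG, 0.09 for the AP-1 motif TGACTCA or its reverse strand TGAGTCA, and -0.03 for the GC box GGGCGG or its reverse strand CCGCCC. A window can hold several of these motifs. CACCTG or CAGGTG stands in 20.6% of the 35116 windows of the table, and a match is a string of letters, not a shown binding site. No such share is given for the gene lists, because a window was at hand for 64 of 116 epithelial and 60 of 97 mesenchymal genes, under the 80% such a check needs.

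In time order, the median signal of E-box promoters was 21.4 CPM in untreated cells, 19.1 at 24 h, 23.2 at 48 h and 24.1 at 72 h. Promoters without it had 18.1, 21.4, 19.0 and 18.8 CPM. With TMM scaling, the 24 h value was thus the lowest of the times with the E-box and the highest without it. With the background scaling the median log2 fold change of E-box promoters was -0.20, so this order turns with the scaling. The untreated and 48 h levels were not computed with that scaling.

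Of the 37 sites given 3 or more E-boxes by the count described above, 20 were higher at 72 h and 1 lower. The 3 of these with the smallest adjusted p, picked after their values were seen, were at MMS19 and UBTD1, at DUS4L and COG5, and at BAIAP2L1. The MMS19 and UBTD1 site (chr10:97498347-97499123) had 166 and 156 CPM at 72 h, against 81.5 and 70.1 CPM at 24 h (log2 1.08, edgeR adjusted p 7.52e-20). The DUS4L and COG5 site (chr7:107563663-107564333) had 59.3 and 67.0 CPM at 72 h, against 15.1 and 15.3 CPM at 24 h (log2 2.05). The BAIAP2L1 site (chr7:98400750-98401418) had 72.0 and 69.7 CPM at 72 h, against 21.1 and 27.4 CPM at 24 h (log2 1.55). The groups did not overlap at any of them, which the choice by smallest adjusted p favours. Of all tested sites, 33.9% had both 72 h libraries above both 24 h libraries. MMS19 serves iron-sulfur protein assembly, COG5 belongs to a Golgi tethering complex, and BAIAP2L1 binds membranes and actin.

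Of the printed promoters, that of the ZEB1 gene had the strongest signal. The site over it (chr10:31318227-31319092) had 142 and 133 CPM at 72 h, against 53.3 and 48.0 CPM at 24 h. Both 72 h values lay far above both 24 h values (log2 1.44, 95% interval 1.18 to 1.71, edgeR adjusted p 1.71e-25). A neighbouring site at chr10:31319218-31319561 had 38.9 and 56.1 CPM at 72 h, against 15.1 and 20.6 CPM at 24 h (log2 1.41). Both sites also touch promoter windows of the antisense gene ZEB1-AS1, and the 2 genes cannot be told apart here; the same holds for ELF3 and ELF3-AS1, and for CTNNA1 and CTNNA1-AS1 below.

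At OCLN (chr5:69492532-69492904) the signal was 32.2 and 27.2 CPM at 72 h, against 11.1 and 10.0 CPM at 24 h, with no overlap (log2 1.49, 0.92 to 2.09, edgeR adjusted p 1.64e-06). At PATJ (chr1:61742162-61742737), the promoter with 3 E-boxes, it was 27.1 and 32.6 CPM at 72 h, against 11.1 and 16.9 CPM at 24 h (log2 1.09, 0.56 to 1.64). At ELF3 (chr1:202009666-202010797) it was 77.9 and 86.9 CPM at 72 h, against 30.2 and 46.9 CPM at 24 h (log2 1.10, 0.78 to 1.42). In each case both 72 h libraries were above both 24 h libraries. Without the first 24 h library PATJ was at log2 0.80 and ELF3 at 0.80, and without the second 72 h library PATJ was at 0.98, all short of 2-fold. With the background scaling the sites at ZEB1, OCLN, PATJ and ELF3 were not called, at log2 0.87, 0.92, 0.53 and 0.53.

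The printed windows without an E-box showed both directions. At CLDN4 (chr7:73830797-73831304) the signal was 43.2 and 53.4 CPM at 72 h, against 22.1 and 23.2 CPM at 24 h (log2 1.08, 0.67 to 1.51, edgeR adjusted p 2.34e-06). Without the second 72 h library it was at 0.95, and with the background scaling at 0.52. At VIM (chr10:17228253-17228814) the signal was 33.0 and 19.9 CPM at 72 h, against 54.3 and 55.9 CPM at 24 h (log2 -1.04, -1.48 to -0.63, edgeR adjusted p 2.1e-06). The 72 h libraries of VIM lay apart from each other, and without the second of them the value was -0.72, short of 2-fold.

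Sites near epithelial genes were more often higher at 72 h than sites at large. A site's linked gene is the one, coding for a protein or a microRNA, whose start or end is nearest and at most 100 kb away, and 466 tested sites were linked to 98 of 116 epithelial genes. Of these, 118 were higher (25.3%) and 28 lower (6.01%), beside 12.1% and 9.29% of all sites, with a median log2 of 0.35. With the background scaling 39 were higher and 84 lower, and the median was -0.22, beside -0.58 over all sites. By list, the medians with that scaling were -0.18 for adhesion, -0.16 for polarity, 0.03 for keratin and basement membrane and -0.50 for regulator genes. Within 5 kb of their gene, 65 of 148 sites were higher (43.9%) and 3 lower (2.03%), with a median of 0.88 that stayed above 0, at 0.32, with the background scaling. Of all 17197 sites within 5 kb of a linked gene, 14.4% were higher and 6.05% lower, with a median of 0.10.

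The median signal of the 148 close sites was 20.3 and 19.0 CPM in the 72 h libraries, against 12.1 and 12.4 CPM in the 24 h libraries. Gene-dense regions had higher medians in general, so the close sites were also read within quintiles of gene density. In the densest quintile 70 close epithelial sites had a median log2 of 0.99, beside 0.24 for all close sites there. In the sparsest quintile 16 had a median of 0.99, beside -0.19. The smallest gap was in the middle quintile, with 0.20 over 18 sites, beside 0.02. Close mesenchymal sites had medians of 0.33, -0.12, 0.04, 0.29 and 0.25 from the sparsest to the densest quintile, beside -0.19, -0.09, 0.02, 0.21 and 0.24 for all close sites. More than 5 kb from their gene, 318 epithelial sites had a median of 0.16, with 53 higher (16.7%) and 25 lower (7.86%), beside a median of -0.03 and shares of 11.5% and 9.68% over all 23854 such sites. With the background scaling their median was -0.41.

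**Figure D3:**
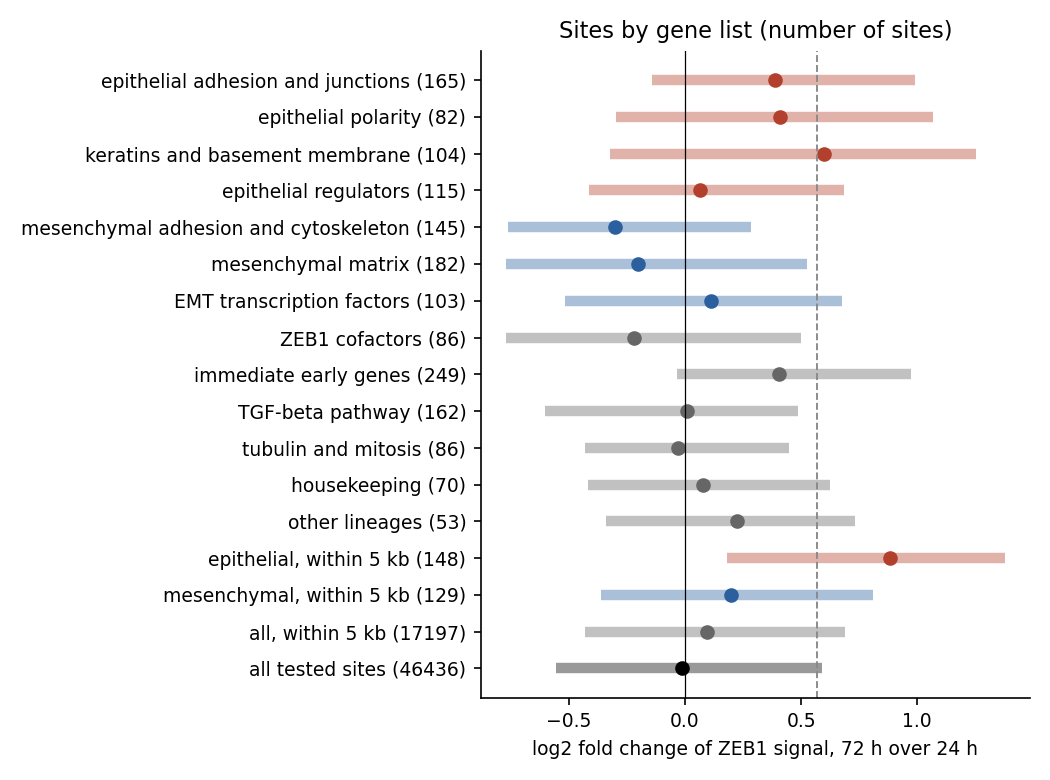
Log2 fold change (72 h over 24 h) of sites by the gene list they are linked to; points are medians, bars run from the first to the third quartile, and the number of sites stands in brackets. The dashed line at 0.57 marks what becomes 0 with the background scaling, and the close epithelial sites, with a median of 0.88, lie beyond it.

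Among adhesion and junction genes, 40 of 165 sites were higher (24.2%) and 10 lower (6.06%), beside 12.1% and 9.29% of all sites (median log2 0.39 in the list). CTNNA1 encodes alpha-catenin, which ties cadherins to actin, and the site over its start (chr5:138752453-138753654) had 83.0 and 79.7 CPM at 72 h, against 24.1 and 25.8 CPM at 24 h (log2 1.70, edgeR adjusted p 6.68e-20). EVPL encodes the desmosomal linker envoplakin, and its site at chr17:76026830-76027593 had 67.7 and 67.0 CPM at 72 h, against 17.1 and 17.4 CPM at 24 h (log2 1.96). At both sites the libraries of the 2 times were far apart, which naming sites of a list by smallest p favours. At EVPL 3 of 4 sites were higher. Among tight junction genes, 4 of 7 sites were higher at CLDN4, 3 of 11 at TJP1, 2 of 5 at TJP3, 1 of 4 at F11R (JAM-A) and 1 of 1 at CLDN3, with 0 lower at any of these genes. The claudins CLDN1 and CLDN7 and the junction receptor CXADR each had 1 site lower, of 2, 3 and 2 sites, beside 1 higher at CLDN7 and 0 at the others. With DESeq2 neither CLDN7 site was called (DESeq2 adjusted p 0.219 at the lower and 0.0794 at the higher site). The CLDN1 site (chr3:190345133-190345542) had 29.6 and 21.7 CPM at 72 h, against 53.3 and 52.7 CPM at 24 h (log2 -1.04, and -0.82 without the second 72 h library). CGN and MARVELD2, with 5 and 2 sites, had 0 called in either direction.

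E-cadherin (CDH1), the best known ZEB1 target, had 7 tested sites in or within 5 kb of the gene, 3 of them higher and 0 lower. Summed over them, the signal was 66.9 and 74.3 CPM at 72 h, against 44.3 and 38.0 CPM at 24 h. The site over the start of the gene (chr16:68737140-68737292) was weak, with 8.47 and 9.96 CPM at 72 h, against 2.01 and 2.64 CPM at 24 h (log2 1.96, 0.80 to 3.30, edgeR adjusted p 0.00158; DESeq2 adjusted p 0.0676). The strongest, inside the gene at chr16:68741850-68742072, had 18.6 and 13.6 CPM at 72 h, against 7.54 and 4.22 CPM at 24 h (log2 1.44, edgeR adjusted p 0.000806, and 0.062 without the first 72 h library). The groups did not overlap at either site, on few counts. At EPCAM, an epithelial adhesion molecule, the site at chr2:47369752-47370164 had 28.8 and 38.9 CPM at 72 h, against 14.6 and 16.3 CPM at 24 h (log2 1.12, with 0.92 without the second 72 h library and 0.55 with the background scaling).

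Polarity genes had 20 of 82 sites higher (24.4%) and 2 lower (2.44%, median 0.41), beside 12.1% and 9.29% of all sites. PARD6B, a subunit of the PAR complex, had the site at chr20:50730664-50731843 with 603 and 590.4 CPM at 72 h, against 203 and 225 CPM at 24 h. Its log2 fold change was 1.48 (1.35 to 1.61, edgeR adjusted p 4.64e-71; 0.91 with the background scaling), and 5 of its 11 linked sites were higher and 0 lower. PRKCZ, an atypical protein kinase C of the same complex, had 4 of 9 sites higher, among them chr1:2046560-2046867 with 27.9 and 27.2 CPM at 72 h, against 4.53 and 5.27 CPM at 24 h (log2 2.48). Both lower sites of the list were at MPP7, a junction scaffold. One of them (chr10:28139192-28139398) had 3.39 and 5.43 CPM at 72 h, against 10.6 and 14.8 CPM at 24 h (log2 -1.51), with an edgeR adjusted p of 0.0036, and of 0.0626 without the second 24 h and 0.112 without the first 72 h library.

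Keratin and basement membrane genes had 37 of 104 sites higher (35.6%) and 9 lower (8.65%, median 0.60), beside 12.1% and 9.29% of all sites. KRT8 and KRT18, the keratin pair of simple epithelia, are neighbours on chromosome 12, and 8 of the 10 sites in or within 5 kb of KRT8 were higher and 0 lower. The site at chr12:52948791-52949210, inside the annotation of both, had 38.1 and 24.4 CPM at 72 h, against 4.02 and 6.85 CPM at 24 h (log2 2.53, 1.82 to 3.32, edgeR adjusted p 3.67e-13). It kept its call with the background scaling and without any 1 library. Another site inside both, at chr12:52949765-52950087, had 88.9 and 86.0 CPM at 72 h, against 29.2 and 30.6 CPM at 24 h (log2 1.55; 0.98 with the background scaling). KRT80 had 9 of 13 sites higher. LAMB3, a chain of laminin-332, had 4 of 7 higher, with 218 and 221 CPM at 72 h, against 99.6 and 109 CPM at 24 h at chr1:209657142-209657509 (log2 1.07; 0.97 with scaling by total counts and 0.51 with the background scaling), and both sites of the hemidesmosome integrin ITGB4 were higher.

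Some epithelial genes went the other way. ITGB6, an integrin chain of epithelia, had 4 of 8 sites lower and 0 higher. EHF, an epithelial ETS factor, had 4 of 13 lower and 0 higher, and its site at chr11:34653926-34654363 had 36.4 and 29.9 CPM at 72 h, against 63.4 and 75.4 CPM at 24 h (log2 -1.06, and -0.91 without the second 24 h or -0.91 without the second 72 h library). The epithelial regulators as a whole had 21 of 115 sites higher (18.3%) and 7 lower (6.09%), beside 12.1% and 9.29% of all sites. Their median was 0.06. ESRP2, an epithelial splicing factor, had 2 of 3 sites higher. GRHL2 is a grainyhead factor of epithelia. A site 26 bp from the gene (chr8:101492319-101492413) had 11.01 and 7.24 CPM at 72 h, against 1.01 and 1.05 CPM at 24 h (log2 3.08), on few counts at 24 h. One farther from the gene (chr8:101451793-101451988) had 4.23 and 5.43 CPM at 72 h, against 16.1 and 15.8 CPM at 24 h (log2 -1.72), on few counts at 72 h.

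Some core genes gave few values or none. No tested site lay in or within 5 kb of ESRP1, OVOL2, MIR200C, ZEB2 or TWIST1. MIR200B had 1, with 17.8 and 19.9 CPM at 72 h, against 12.1 and 13.2 CPM at 24 h (log2 0.57, not called). CRB3, a Crumbs protein, had 1, with 196 and 195 CPM at 72 h, against 114 and 116 CPM at 24 h (log2 0.77, short of 2-fold). Over the 18 epithelial core genes with a site, the sums of both 72 h libraries were above those of both 24 h libraries at 16, below at MIR205 and overlapping at ESRP2. Over the 13 mesenchymal ones they were above at 5 (ZEB1, SNAI1, SNAI2, COL1A1, CCN2), below at CDH2, AXL and CD44, and overlapping at 5. Of single sites at large, 33.9% had both 72 h libraries above both 24 h libraries, and 34.1% below. A sum over several sites has less counting noise than 1 site, so these shares are not a like measure. The sums use TMM scaling. Their order was not computed with the background scaling, which shifts the median log2 over all sites by -0.57.

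**Figure D4:**
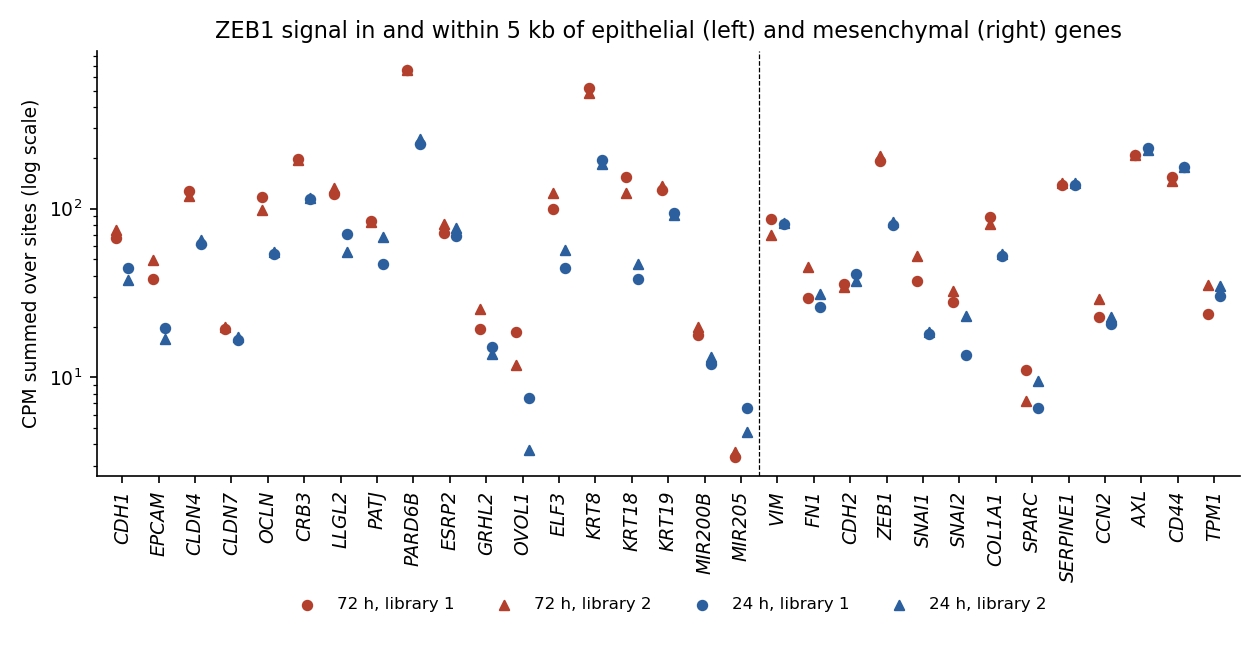
ZEB1 signal summed over all tested sites in or within 5 kb of each core gene, in CPM on a log axis; each point is 1 library (72 h red, 24 h blue; circles the first and triangles the second library), with epithelial genes left of the dashed line. PARD6B has 663 and 663 CPM at 72 h against 241 and 258 CPM at 24 h, and VIM has 86.4 and 69.7 CPM at 72 h against 81.5 and 82.2 CPM at 24 h.

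Of 430 tested sites linked to 86 of 97 genes of the mesenchymal lists, 43 were higher (10.0%) and 56 lower (13.0%), beside 12.1% and 9.29% of all sites, with a median of -0.20 (-0.76 with the background scaling). Without the first 72 h library 29 were lower. Within 5 kb of the gene, 21 of 129 sites were higher (16.3%) and 9 lower (6.98%), beside 14.4% and 6.05% of all close sites, with a median of 0.20 beside 0.10 (-0.37 with the background scaling). Beyond 5 kb, 22 of 301 were higher (7.31%) and 47 lower (15.6%), beside 11.5% and 9.68% of all such sites, with a median of -0.30 beside -0.03. The median signal of the close sites was 14.4 and 14.5 CPM in the 72 h libraries, against 12.1 and 13.2 CPM in the 24 h libraries. Mesenchymal sites had a median of 13 protein-coding genes within 1 Mb, all sites 17 and epithelial sites 20.

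In the mesenchymal adhesion and cytoskeleton list, 9 of 145 sites were higher (6.21%) and 23 lower (15.9%), beside 12.1% and 9.29% of all sites. NT5E, the surface ectonucleotidase CD73, had 6 of 8 sites lower, and CAV1, the coat protein of caveolae, had 3 of 8 lower, with 0 higher at either. Both sites of the cadherin CDH6 were lower, one of them (chr5:31362016-31362265) with 6.77 and 7.24 CPM at 72 h, against 19.6 and 23.2 CPM at 24 h (log2 -1.60, edgeR adjusted p 5.3e-05). Upstream of VIM, chr10:17216250-17216707 had 20.3 and 19.0 CPM at 72 h, against 50.8 and 50.1 CPM at 24 h (log2 -1.35). On the far side of the gene, chr10:17238286-17238690 had 27.1 and 24.4 CPM at 72 h, against 10.6 and 10.0 CPM at 24 h (log2 1.32; 0.75 with the background scaling), so called sites around VIM lay on both sides of 0.

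Matrix genes had 19 of 182 sites higher (10.4%) and 25 lower (13.7%), beside 12.1% and 9.29% of all sites. TNC, tenascin-C, had 6 of 16 lower, COL6A3 4 of 14, TGFBI, a TGF-beta-induced matrix protein, 3 of 7, and COL5A2 2 of 5, with 0 higher at these genes. At TGFBI, chr5:136016984-136017392 had 21.2 and 19.9 CPM at 72 h, against 51.3 and 63.8 CPM at 24 h (log2 -1.48). The other collagen VI chains of the list had higher sites, 3 of 4 at COL6A1 and 2 of 4 at COL6A2, and 0 lower. PLAUR, the urokinase receptor, had 1 site in each direction. At chr19:43675438-43675731 it had 118 and 122 CPM at 72 h, against 35.2 and 34.8 CPM at 24 h (log2 1.77), and at chr19:43668405-43669091 it had 55.9 and 48.9 CPM at 72 h, against 112 and 125 CPM at 24 h (log2 -1.17).

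Transcription factors of the transition had 15 of 103 sites higher (14.6%) and 8 lower (7.77%), beside 12.1% and 9.29% of all sites. Their median was 0.11, or -0.46 with the background scaling. SNAI1 is a repressor that binds the same E-box, and its site at chr20:49979112-49979405 had 14.4 and 14.5 CPM at 72 h, against 4.02 and 4.22 CPM at 24 h (log2 1.79). Both sites of its relative SNAI3 were higher. RUNX2 had 2 of 10 sites lower, among them chr6:45328069-45328241 on its promoter, with 1.69 and 2.72 CPM at 72 h, against 13.1 and 12.1 CPM at 24 h (log2 -2.49), on few counts at 72 h. Sites at genes of ZEB1 cofactors and chromatin enzymes were higher at 9 of 86 (10.5%) and lower at 15 (17.4%, median -0.22). At EED, a Polycomb subunit, chr11:86244675-86245329 had 7.62 and 7.24 CPM at 72 h, against 20.6 and 34.8 CPM at 24 h (log2 -1.88), and at TEAD1, a DNA-binding partner of YAP, 3 of 8 sites were lower and 0 higher.

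The remaining lists give the scale for these counts, beside 12.1% higher and 9.29% lower over all sites. Immediate early genes, which mitogens and stress switch on quickly, had 57 of 249 sites higher (22.9%) and 6 lower (2.41%, median 0.40). In that list, a site 25 kb from KLF6 (chr10:3810075-3810569) had 413 and 423 CPM at 72 h, against 150.4 and 140.2 CPM at 24 h (log2 1.52; 0.95 with the background scaling). TGF-beta pathway genes had 19 of 162 sites higher (11.7%) and 12 lower (7.41%, median 0.01). Tubulin and mitosis genes had 11 of 86 higher (12.8%) and 4 lower (4.65%, median -0.03). Housekeeping genes had 14 of 70 higher and 2 lower (median 0.08), and genes of other lineages 6 of 53 and 7 (median 0.22). The medians of all 5 lists were below 0 with the background scaling, from -0.60 to -0.16.

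Among sites above the median signal, the largest rise was at the promoter of SPATC1L (chr21:46184432-46185209), with 830.5 and 852 CPM at 72 h, against 86.5 and 80.7 CPM at 24 h (log2 3.33, 3.16 to 3.50, edgeR adjusted p 7.9e-142). Untreated cells had 617 CPM and 48 h cells 547 CPM there, so the 24 h libraries were the low ones. The second largest was inside CAVIN1, a caveolar coat gene of the mesenchymal lists (chr17:42407572-42407737), with 8.47 and 12.7 CPM at 72 h, against 1.51 and 0.527 CPM at 24 h (log2 3.27, 1.81 to 5.34), on few counts at 24 h. Sites linked to RAMACL (inside RPS6KA2) and IGSF9B came next, at log2 2.99 and 2.89. KRT80 had 47.4 and 44.4 CPM at 72 h, against 5.53 and 7.38 CPM at 24 h at chr12:52148600-52148910 (log2 2.82). DNAJB1, a heat shock cochaperone, had 28.8 and 30.8 CPM at 72 h, against 6.04 and 2.64 CPM at 24 h at chr19:14556063-14556270 (log2 2.75). The higher sites with the most signal lay within 5 Mb of chromosome ends near MIR8078, DUX4, FRG2B and TTC34, at log2 1.55 to 1.61. DUX4 belongs to a repeat array, and reads there can come from near-identical copies, so the place is uncertain.

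The largest fall was inside UCKL1 beside MIR647 (chr20:63941895-63942366), with 2.54 and 5.43 CPM at 72 h, against 51.3 and 54.8 CPM at 24 h (log2 -3.73, -4.90 to -2.80, edgeR adjusted p 8.47e-25). Untreated cells had 2.11 CPM and 48 h cells 10.5 CPM there, so the 24 h libraries were the high ones. CDH15, M-cadherin, had 8.47 and 7.24 CPM at 72 h, against 38.2 and 44.8 CPM at 24 h (chr16:89192535-89193246). The promoter of KLF16, a zinc finger factor, had 14.4 and 15.4 CPM at 72 h, against 69.4 and 75.9 CPM at 24 h (chr19:1863659-1864354). Sites between these in size were linked to FJX1, DNER, SDR42E2 and RARRES1 or to no gene, at log2 -2.36 to -2.28, and the next after KLF16 was linked to TNC (-2.26). Untreated cells were low at CDH15 and KLF16, with 7.24 CPM at CDH15 and 18.1 CPM at KLF16. At the promoter of EMD, the nuclear envelope protein emerin, chrX:154378596-154379338 had 61.8 and 53.4 CPM at 72 h, against 144 and 147 CPM at 24 h (log2 -1.33). The promoter of SP1, a GC-box factor (chr12:53379454-53380160), had 70.3 and 62.5 CPM at 72 h, against 138 and 134 CPM at 24 h (log2 -1.04, and -0.94 without the second 72 h library).

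The deposited peak lists held 17941 peaks over 4255766 bases at 72 h and 33466 peaks over 8412504 bases at 24 h, with median fold enrichments of 6.54 and 7.86 as the authors' peak caller gave them. Of the 72 h peaks, 85.6% overlapped a 24 h peak by at least 1 base (exact 95% binomial interval 85.1 to 86.1), and of the 24 h peaks, 45.2% overlapped a 72 h peak (44.7 to 45.8). With the 24 h list held to its 17941 peaks of smallest p, the shares were 65.9% and 64.5%. With TMM scaling, a peak at 24 h and not at 72 h was seldom a called loss. Of 16647 such tested sites, 3619 (21.7%) were called lower, but 9384 were with the background scaling. Of 2001 with a peak at 72 h and not at 24 h, 1486 (74.3%) were called higher with TMM and 756 with the background scaling. The peak lists and the counts come from the same libraries.

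Direction also went with place on the chromosome. Within 5 Mb of a chromosome end, 1477 of 5825 sites (25.4%) were higher and 306 (5.25%) lower, beside 10.2% and 9.87% farther in. Their median log2 was 0.38 (-0.19 with the background scaling), beside -0.06 farther in. Across quintiles of gene density, counted as protein-coding genes within 1 Mb, the median was -0.34, -0.18, -0.01, 0.21 and 0.27 from the sparsest to the densest. Chromosome medians ran from -0.30 on X and -0.28 on 4 to 0.25 on 17 and 0.32 on 22. Over the 23 chromosomes they went with genes per Mb at a Spearman rho of 0.753, a description over chromosomes that share the same 4 libraries. Sites over 1000 bp wide had a median of 0.41, with 96 of 454 higher (21.15%) and 3 lower (0.661%), beside 12.1% and 9.29% of all sites. Copy number, chromatin state and read mapping were not tested.

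**Figure D5:**
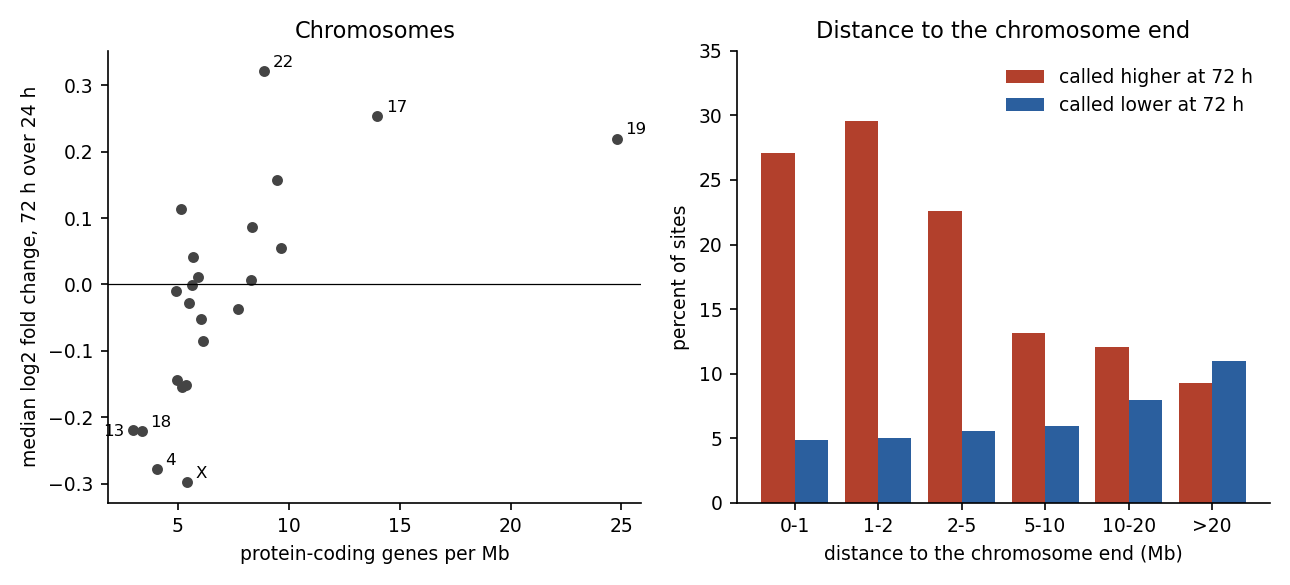
Left, the median log2 fold change (72 h over 24 h) of the sites of each chromosome against its protein-coding genes per Mb; right, the percent of sites called higher (red) and lower (blue) at 72 h by distance to the chromosome end in Mb. Chromosomes 17, 19 and 22 lie above 0 and 4, 13 and X below it, and the share called higher is 29.5% at 1 to 2 Mb from an end and 9.26% beyond 20 Mb.

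The classes differed in the same direction away from chromosome ends. More than 5 Mb from an end, 106 of 410 epithelial sites were higher (25.9%) and 27 lower (6.59%, median 0.33). Of 348 mesenchymal sites, 24 were higher (6.90%) and 49 lower (14.1%, median -0.27). Of all sites that far in, 10.2% were higher and 9.87% lower (median -0.06).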

How the data were processed

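The deposited table holds whole-number counts per consensus site for 8 ZEB1 libraries, made by the authors; the submitters' processing notes list, with no role or order, the hg38 build, featureCounts, deepTools, Picard, MACS2 2.1.1, the aligner Bowtie2 2.2.6, bedtools 2.30.0, the adapter trimmer cutadapt 2.4 and bcl2fastq 2.20.0.422. Whether reads or fragments were counted, and whether IgG served as control, is not given in the sources used here. The deposited peak lists, 1 per time, give the authors' fold enrichment, -log10 p and -log10 q for each peak and a score of 10 times -log10 q, in the layout MACS2 writes; their peak names hold replicate 1, so they may come from 1 library of each time.

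Counts of all 8 libraries (1130706 to 3561455 a library) were fitted with edgeR 4.0.16 in R 4.3.3 (filterByExpr, TMM, quasi-likelihood test, Benjamini-Hochberg adjustment over the 46436 sites tested), so the 4 times share 1 estimate of spread, and 72 h was set against 24 h. A call needs an adjusted p under 0.05 and at least 2-fold. The background scaling divides each time's counts by the floor of the peak caller's local background, solved from the fold and -log10 p of its peaks (0.569 at 72 h and 0.646 at 24 h). The common coefficient of variation was 0.00988, near 0, so p-values cover little more than counting error; DESeq2 1.42.0 and an assumed coefficient of 0.2 are alternatives. Simulated counts for this comparison (44002 sites) were scored by adjusted p under 0.05 alone, without the 2-fold minimum. Of sites made to differ, 56 of 66 were found at 4-fold, 22 of 67 at 2-fold and 8 of 66 at 1.5-fold. In addition, 5 unchanged sites were found. Far fewer sites differed there than are called here, so these shares are not those of the calls above. Overlaps used bedtools 2.31.1. Gene places, names and promoter windows come from RefSeq tables of GRCh38.p14.

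Sites are named by a rule: the 10 largest changes per direction among called sites above the median abundance whose libraries do not overlap, up to 3 of smallest p per list and direction, the strongest linked site of each core gene and its sites within 5 kb, and the 5 called sites of highest signal per direction. The members and lists, and the E-box and chromosome-place comparisons, were chosen with earlier results of these data known.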

Additional observations from a re-analysis of the deposited data

How the results depend on the processing

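Counts of 72 h sites are given as higher, then lower, than at 24 h; the cause of each shift was not tested except where fewer sites enter. Over all sites, DESeq2 called 3371 and 1614, the background scaling 1909 and 13624, sites averaging at least 20 counts 2947 and 2188, an assumed coefficient of variation of 0.2 4143 and 2387, and adjusted p alone 9004 and 7638; DESeq2 size factors in edgeR, total counts, TMM over the weakest sites, no filter and a fit of the 4 libraries alone stayed within 1.5 times. Epithelial counts (118 and 28) were 39 and 84 with the background scaling, 72 and 15 at 20 counts and 65 and 3 within 5 kb; the lower count was 11 with DESeq2, 15 with the assumed variation and 46 by p alone. Mesenchymal counts (43 and 56) were 11 and 149 with the background scaling, 20 and 19 at 20 counts, 72 and 87 by p alone and 21 and 9 within 5 kb; the lower count was 18 with DESeq2 and 27 with the assumed variation. E-box promoters (322 and 40) had 92 and 230 with the background scaling and 664 and 142 by p alone; the lower count was 17 with DESeq2 and 21 with the assumed variation. Promoters without it (294 and 578) had 59 and 2418 with the background scaling and 830 and 1594 by p alone; the lower count was 321 with DESeq2 and 371 with the assumed variation. With the background scaling the medians of epithelial sites (-0.22), mesenchymal sites within 5 kb (-0.37) and E-box promoters (-0.20) turned below 0, as did those of promoters with 1 E-box, of sites near chromosome ends and of several lists. The median of all sites (-0.01) was 0.06 with TMM over the weakest sites and 0.02 without the second 24 h library. Leaving out 1 library gave 4875 to 5321 higher and 3091 to 3664 lower sites, 102 to 111 and 20 to 21 epithelial, 34 to 46 and 29 to 45 mesenchymal (29 without the first 72 h library), 311 to 322 and 31 to 41 E-box and 282 to 320 and 514 to 548 other promoter sites. Of 72 h peaks, 81.1% overlapped a 24 h peak by at least 50% of their length, 87.8% at a -log10 q of 5 or more and 65.9% with lists of equal length; of 24 h peaks, 35.5%, 40.4% and 64.5% overlapped a 72 h peak in these settings. Of 131 called named sites, 88 kept their call with the background scaling, 120 with DESeq2 and 112 to 122 without 1 library, and none reversed. Replicate numbers did not pair the libraries (Pearson r -0.00569 over sites), and with the number as a block 5614 sites were higher and 4296 lower. The E-box and place comparisons and their settings were added after the data were seen. With n = 1 per time, no value here measures variation between cultures. At 1130706 to 1886419 counts over 52981 sites, a weak site holds few counts, and differences there are often not detectable.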
